A study of Macaca mulatta with 16 samples.

Results

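The proteins that couple the surface membrane to calcium release in skeletal muscle were described across the extraocular muscles of the rhesus macaque. The set holds 9 genes, whose probe sets were taken by gene symbol from the platform annotation: CACNA1S, CACNA2D1, CACNB1, CACNG1, RYR1, FKBP1A, TRDN, JPH1 and JPH2. They are 9 of the 19044 genes named on the arrays and have 17 of 44928 probe sets, of which 13 are on the array type U133A and 4 on U133B. No member shares its probe set with a second gene symbol.

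At a triad, a tubule that carries the action potential into the fibre lies between the ends of neighbouring compartments of the sarcoplasmic reticulum, the calcium store. A voltage-gated channel of the tubule membrane, built around CACNA1S, senses the depolarisation and opens the ryanodine receptor RYR1 of the store by direct contact, and the released calcium starts contraction. Junctophilins hold the membranes of tubule and store together, and extraocular muscles, which move the eye, are known for fast and fatigue-resistant contraction.

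RNA came from adult animals in 4 groups. These were the orbital layer and the global layer of extraocular muscle, which were microdissected, and 2 muscles sampled whole, the lateral rectus and the medial rectus. The labels name no treatment and no altered genotype. There were 16 arrays in all, 2 for each group and array type, a number that limits the precision. According to the labels, only the layer samples went through a T7-based amplification, so microdissection, amplification and tissue cannot be told apart between layers and whole muscle. Macaque RNA was read by probes designed for human transcripts, so differences between probe sets in level are not differences in transcript abundance. Nothing says which arrays share an animal, so p-values rest on a spread between arrays that may be technical. If samples share animals, the p-values against whole muscle may be too small, and those between the layers leave out any pairing. In RNA of whole tissue, fewer fibres of a type and less RNA per fibre cannot be told apart.

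Some labels disagree. On U133A, the array titled as orbital replicate 1 is called global layer in its source name, and on U133B the source name of global replicate 1 does not say which layer it is. The titles were used, and the differences between the layers of the members that could be tested are also given without these arrays. The muscle identity of the samples was clear on U133A: 9 of 10 skeletal muscle markers were measured, none was at 0, and their summed scaled intensity was 628542 to 674033 on the orbital, 674831 to 723149 on the global, 817885 to 958012 on the lateral rectus and 766874 to 801435 on the medial rectus arrays. For ACTB, the beta-actin gene, signal at the 3' end over signal at the 5' end, a measure of RNA integrity and of amplification, moved with the groups. This ratio ranged over 5.30 to 5.87 for the orbital, 2.84 to 2.88 for the global and 0.716 to 1.04 for the whole muscle arrays of U133A. The U133B ranges were 4.43 to 5.29, 3.54 to 3.61 and 0.512 to 0.933. The same ratio of GAPDH overlapped between orbital (1.73 to 2.00 on U133A, 2.49 to 3.74 on U133B) and global arrays (1.50 to 2.92 and 2.04 to 4.33). Against whole muscle, at 0.947 to 1.66 and 1.18 to 1.74, the layers overlapped on U133A and lay above it on U133B. The 5 fibroblast markers summed to 212321 to 242092 on the orbital and 179703 to 182921 on the global arrays of U133A, and the 5 endothelial markers to 13267 to 14278 and 16659 to 21417. The 3 adipocyte markers, with 2 below the floor on both arrays of each layer, summed there to 1044 to 2135 and 3329 to 6583. The 3 red cell markers summed to 74262 to 85358.5 on lateral and 19217 to 30482 on medial rectus arrays of U133A, with 0 of 9 tested probe sets past the threshold. The 4 smooth muscle and pericyte markers summed to 31784 to 33615 in the layers and 13084 to 23357 in whole muscle on U133A, with 5 of 6 tested probe sets past the threshold, all higher in the layers (18.6% of all). On U133B, 3 of these markers were measured and none was bright enough to be tested. Their sums overlapped there, at 706 to 3496 in the layers and 705 to 2285 in whole muscle. On U133B, where 4 fibroblast and 2 skeletal muscle markers were measured, both sums were higher in the layers: 12825 to 18302 against 6401 to 7727 for fibroblast and 10082 to 19863 against 5940 to 8262 for skeletal muscle markers, the latter opposite to U133A. The fibroblast rise was not seen on U133A, where all 5 markers were measured. Whole muscle sums there, 200937 to 259935 on lateral and 203858 to 219402 on medial rectus arrays, overlapped with those of the layers. The part of these measures in the differences below was not tested.

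Between the layers, no member passed the test, which was limma's moderated test with Benjamini-Hochberg adjustment over all probe sets kept and a threshold of adjusted p under 0.05. On U133A, 7 of the 13 probe sets, from 5 genes, were bright enough to be tested, and 0 passed against 0.409% of the 9532 tested. On U133B all 4 were tested and 0 passed, against 0.021% of 9510. At an unadjusted p under 0.05 there were 2 of 7 on U133A (CACNB1 206996_x_at and FKBP1A 200709_at) and 1 of 4 on U133B (JPH1), where all probe sets gave 9.49% and 7.76%. The arrays of the layers did not overlap in 4 of the 7 probe sets (41.9% of all) and in 1 of the 4 (38.6% of all), which is little to read from so few members. The median log2 difference of the members, orbital minus global, was −0.10 on U133A and −0.66 on U133B, beside −0.04 and 0.03 over all probe sets.

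Between the whole muscles there was also no member past the threshold. On U133A, 10 of the 13 probe sets were tested and 0 passed (0% of 11907), and on U133B 0 of 4 passed (0% of 11836). None of the members had an unadjusted p under 0.05, beside 2.8% and 3.43% of all probe sets in limma. The arrays of medial and lateral rectus were apart in 3 of the 10 (28.6% of all) and in 1 of the 4 (32.1% of all). Medians of the log2 difference, medial minus lateral, were 0.13 and −0.34, beside 0.00 and −0.03 over all probe sets.

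Between microdissected layers and whole muscle, members moved in both directions. On U133A, 5 of 10 tested probe sets passed, a share near the 48.7% of all 10533 tested: 1 was higher in the layers (18.6% of all) and 4 were lower (30.1% of all). Of those lower, CACNA2D1 207050_at, CACNB1 210185_at and FKBP1A 210186_s_at had layer means of 588, 523 and 299 units, under the filter level of 654. They were kept for the test only through their higher whole muscle values, so their direction is not independent of the filter. The groups did not overlap in 3 of the 10, all lower in the layers (43.9% of all in either direction, 16.6% higher and 27.3% lower). On U133B, 2 of 4 passed, both higher in the layers, beside 42.8% of the 10547 tested, 20.5% higher and 22.3% lower. In these same 2 the groups did not overlap (40.7% of all in either direction, 19.1% higher and 21.6% lower). At an unadjusted p under 0.05 there were 7 of 10 and 3 of 4, beside 55.3% and 52.1% of all. The median over all probe sets, layers minus whole muscle, was −0.18 on U133A and −0.21 on U133B, and it moved to 0.00 and −0.04 when arrays were quantile normalized, so changes are also given relative to that median. The members had medians of −0.24 and 1.26, which moved to −0.54 and 0.40 under quantile normalization, further than the median of all probe sets did. The U133A median includes the 3 probe sets kept only through whole muscle. With a stricter filter at the 75th percentile, which kept 7 member probe sets and dropped these 3, it was 0.13. The sign of the U133A median therefore depends on the filter.

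**Figure D1:**
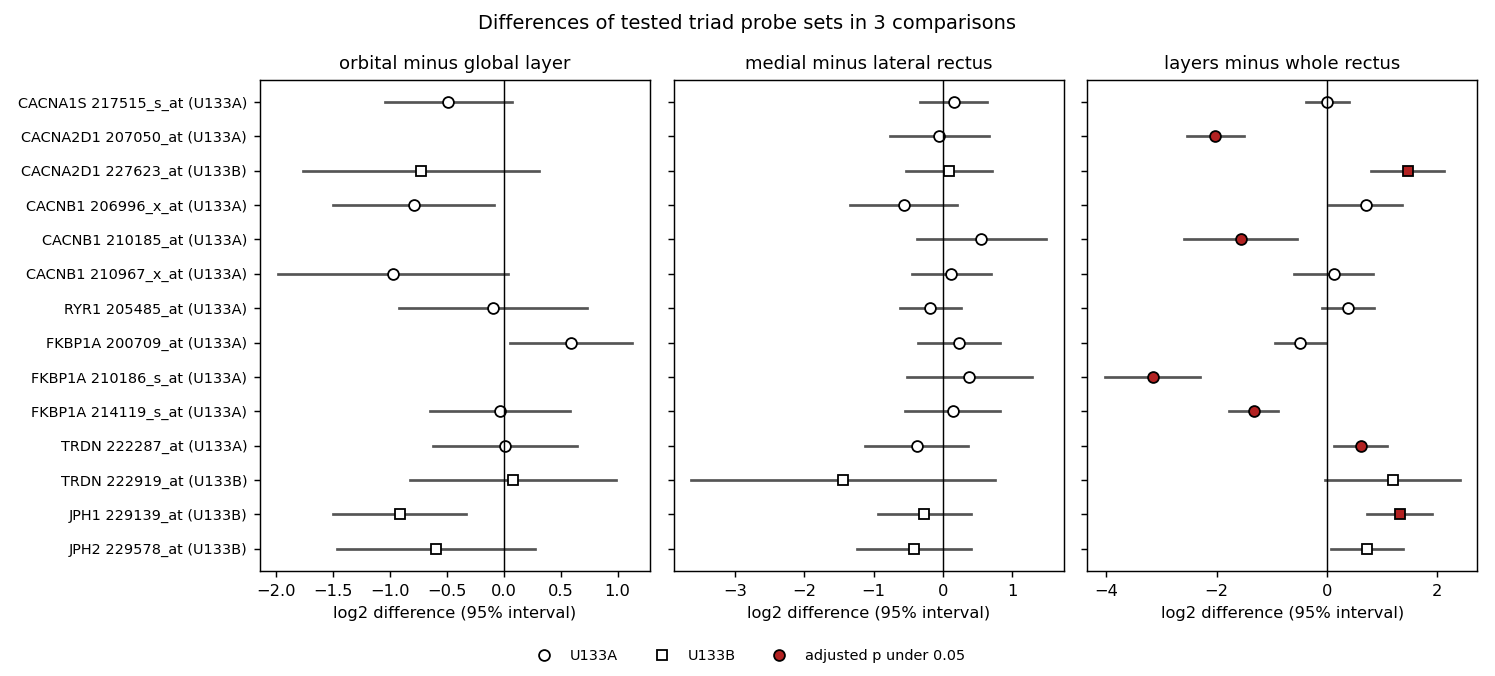
Log2 differences of the tested member probe sets with 95% confidence intervals from limma, for orbital against global layer, medial against lateral rectus, and microdissected layers against whole rectus. Intervals of the first 2 comparisons are wide and no member passed in them, whereas 7 probe sets passed between layers and whole muscle, from −3.16 for FKBP1A to 1.47 for CACNA2D1.

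CACNA1S encodes the pore-forming subunit of the tubule channel, the voltage sensor of the triad. Its probe set 217515_s_at read 4599.6 and 5487 on the orbital arrays, 6808 and 7312 on the global arrays, 5637 and 5551 on the lateral rectus arrays, and 5937 and 6559 on the medial rectus arrays. The groups were ordered global, medial, lateral, orbital, and no neighbours in this order overlapped, although the whole range of group means was narrow. The orbital minus global log2 difference was −0.49 ± 0.24 (SE; 95% interval −1.05 to 0.07), or 1.40-fold, with an adjusted p of 0.568 in limma. Without the array with the conflicting label it was −0.36. The differences were 0.16 ± 0.21 for medial minus lateral rectus (interval −0.33 to 0.65, limma adjusted p = 0.999) and 0.01 ± 0.18 for layers minus whole muscle (interval −0.38 to 0.40, limma adjusted p = 0.966). The last of these is close to 0 and turned to −0.26 under quantile normalization.

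CACNB1 encodes the beta subunit that brings the pore to the triad, and its 3 probe sets on U133A did not behave alike. Probe set 206996_x_at read 5289 and 4166 on orbital, 6327 and 10451 on global, 3958 and 5329 on lateral and 4224 and 2284 on medial rectus arrays. Probe set 210967_x_at read 3235 and 2348 on orbital, 3356 and 8764 on global, 3800.0 and 3039 on lateral, and 3648 and 3739.7 on medial rectus arrays. Both were higher on every global array than on every orbital array, and in both the second global array was the highest of all 8. The orbital minus global differences were −0.79 ± 0.31 (1.73-fold, limma adjusted p = 0.470) and −0.98 ± 0.44 (limma adjusted p = 0.545). Their size rested on that global array: without it they were −0.43 and −0.28, and without global replicate 1 the second was −1.67. Without the orbital array of conflicting label they were −0.97 and −1.21.

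The third probe set of CACNB1, 210185_at, was dimmer, at 648 and 424 on orbital, 846 and 173 on global, 1486 and 804 on lateral and 1524 and 1694 on medial rectus arrays. Layer arrays averaged 523 ± 290 and whole muscle arrays 1377 ± 392 (SD, n = 4), with 1 global array just above the lowest whole muscle array. It fell in the layers by 1.57 ± 0.47 on the log2 scale (2.96-fold, limma adjusted p = 0.0157), or −1.39 relative to the median of all probe sets. The call was lost under quantile normalization (−0.98, adjusted p = 0.0974 in limma) and without a filter on dim probe sets (adjusted p = 0.0619), over a range of 0.00598 to 0.0974 in all settings. The other 2 probe sets of the gene differed the other way without passing, by 0.71 ± 0.30 and 0.13 ± 0.33 (limma adjusted p = 0.0721 and 0.772). A name ending in x_at marks, in the array maker's scheme, probes that may also bind other transcripts.

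CACNA2D1 encodes the alpha-2/delta subunit, a largely extracellular partner of the pore that is also the binding site of gabapentin. Its U133A probe set 207050_at read 425 and 659 on orbital, 675 and 593.5 on global, 2647 and 2174 on lateral, and 1878 and 2859 on medial rectus arrays. Every layer array was far below every whole muscle array, while orbital and global, and likewise lateral and medial, overlapped. Means were 588 ± 114 in the layers and 2390 ± 445 in whole muscle (SD, n = 4). By this probe set the gene fell in the layers by 2.03 ± 0.24 (4.07-fold, limma adjusted p = 0.000101), or −1.85 relative to the median of all probe sets. The call held in all 16 settings in which the probe set was tested (limma adjusted p between 6.54e-05 and 0.00101). Its layer mean was under the filter level of 654 units, so it was kept only through its whole muscle values.

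The U133B probe set of CACNA2D1, 227623_at, gave the opposite result. It read 18107 and 15497 on orbital, 16549 and 46771 on global, 8095 and 7092 on lateral, and 7279.6 and 8921 on medial rectus arrays. Here every layer array was above every whole muscle array, and the second global array stood 2.83-fold above the first. Means were 24231 ± 15065 and 7847 ± 838 (SD, n = 4). The signal rose in the layers by 1.47 ± 0.31 (2.76-fold, limma adjusted p = 0.00274), or 1.68 relative to the median, and quantile normalization ended this call (0.55, adjusted p = 0.166; range over settings 0.00175 to 0.166). The same gene was therefore lower in layers by one probe set and higher by another. The ACTB ratio of 3' over 5' signal parts the same groups, at 2.84 to 5.87 in the layers and 0.716 to 1.04 in whole muscle on U133A. On U133B it was 3.54 to 5.29 and 0.512 to 0.933. The GAPDH ratio does not part them on U133A (1.50 to 2.92 and 0.947 to 1.66) but does on U133B (2.04 to 4.33 and 1.18 to 1.74). The part of RNA integrity and amplification in this disagreement was not tested. Between the layers, the U133B value was −0.73 ± 0.45 (interval −1.77 to 0.31), and it went to 0.018 without global replicate 2 and to −1.48 without global replicate 1, the array of unstated layer.

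CACNG1 encodes the gamma subunit of the skeletal muscle channel. Its probe set 206612_at read 352 and 172 on orbital, 715.5 and 735 on global, 161 and 176.5 on lateral, and 168.5 and 466 on medial rectus arrays. It was highest on both global arrays and near the floor of 146 units on several others, and it was too dim for the test in all 3 comparisons. Orbital and global did not overlap, with only the orbital array at 172 left once that of conflicting label is set aside, and the ratio of their means, global over orbital, was 2.77. With no filter, the orbital minus global difference was −1.56 ± 0.52 (interval −3.26 to 0.14, limma adjusted p = 0.730), and layers minus whole muscle gave 0.96 ± 0.58 (limma adjusted p = 0.249).

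**Figure D2:**
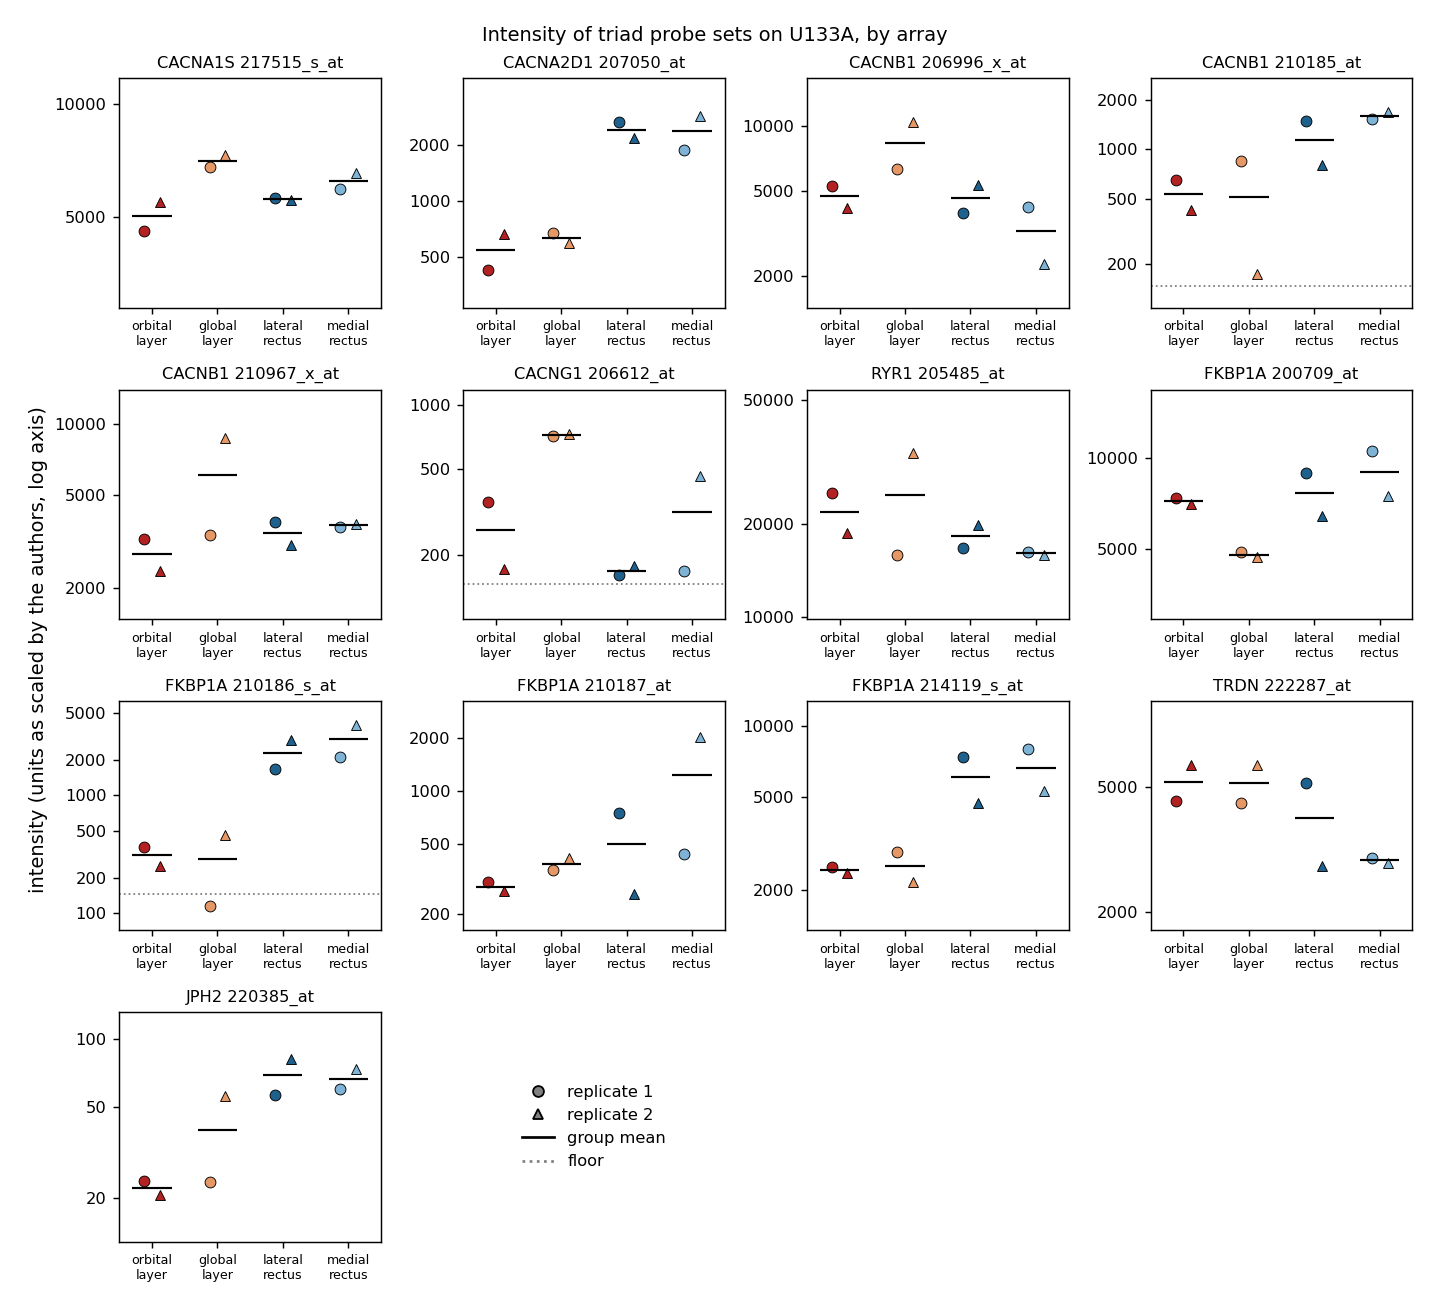
Deposited intensities of the 13 member probe sets on U133A, by group, on a log axis, with 1 point per array. CACNA2D1 and the FKBP1A probe sets 210186_s_at and 214119_s_at lie lower on all 4 layer arrays than on the whole muscle arrays, CACNA1S stays within 4599.6 to 7312, and JPH2 lies at or below 81.8 units on every array.

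RYR1 encodes the release channel of the sarcoplasmic reticulum. Probe set 205485_at read 25016 and 18585 on orbital, 15799.9 and 33598 on global, 16689 and 19772 on lateral, and 16216 and 15863 on medial rectus arrays. The spread within the global layer, 2.13-fold between its arrays, was wider than any difference between group means, which spanned 1.54-fold. Orbital minus global was −0.10 ± 0.36 (interval −0.92 to 0.73, limma adjusted p = 0.953), and this sign rested on single arrays: it was 0.45 without global replicate 2, −0.64 without global replicate 1 and −0.31 without the orbital array of conflicting label. Medial rectus lay below lateral rectus on every array, by −0.18 ± 0.19 (interval −0.62 to 0.26, limma adjusted p = 0.999). Layers minus whole muscle was 0.38 ± 0.21 (limma adjusted p = 0.156), which passed without global replicate 1 (0.55, adjusted p = 0.0367) and turned to −0.19 under quantile normalization, with adjusted p between 0.0367 and 0.490 over all settings.

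FKBP1A encodes the immunophilin that binds the ryanodine receptor and steadies its closed state. It is expressed in most tissues and is the target of tacrolimus. The brightest of its 4 probe sets, 200709_at, read 7334 and 7014 on orbital, 4859 and 4679 on global, 8869.6 and 6394 on lateral, and 10484 and 7482 on medial rectus arrays. It was higher on both orbital than on both global arrays, lateral rectus overlapped with the orbital layer, and medial rectus lay just above it. The orbital minus global difference was 0.59 ± 0.23 (interval 0.05 to 1.13, limma adjusted p = 0.476), and 0.56 without the array of conflicting label. A second probe set, 214119_s_at, did not show it: its orbital arrays read 2523 and 2358 and its global arrays 2895.5 and 2157, a difference of −0.04 ± 0.27 (limma adjusted p = 0.978), and −0.084 without that array.

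Against whole muscle, all 4 probe sets of FKBP1A differed in the same direction, lower in the layers, and 2 of them passed. Probe set 214119_s_at read 7392 and 4711 on lateral and 7994 and 5307 on medial rectus arrays, all above the layers. It fell by 1.33 ± 0.20 (2.51-fold, limma adjusted p = 0.000412), or −1.15 relative to the median of all probe sets. Probe set 210186_s_at read 365 and 253 on orbital, 114 and 464 on global, 1659 and 2916.5 on lateral, and 2108 and 3920.2 on medial rectus arrays. It fell by 3.16 ± 0.40 (8.93-fold, limma adjusted p = 0.000134), or −2.98 relative to the median, with 1 global array below the floor, to which it was raised in the fit. Both calls also held in every other setting in which these probe sets were tested. The brightest, 200709_at, differed by −0.48 ± 0.21 and did not pass (limma adjusted p = 0.0768), and it passed under quantile normalization (−0.83, adjusted p = 0.0103), where the range over settings was 0.0103 to 0.205. The dim 210187_at, between 258 and 2016 units, was never bright enough to be tested with the filter, and differed by −0.96 ± 0.61 without it (limma adjusted p = 0.279).

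TRDN encodes triadin, which anchors the calcium-binding calsequestrin of the store to the release channel. Probe set 222287_at on U133A read 4492 and 5843 on orbital, 4424 and 5847 on global, 5142 and 2792.5 on lateral, and 2969 and 2869 on medial rectus arrays. The layers were almost identical, at 0.01 ± 0.27 orbital minus global (limma adjusted p = 0.992) and 0.20 without the array of conflicting label, and lateral replicate 1 lay within the range of the layers. TRDN rose in the layers by 0.62 ± 0.22 (1.53-fold, limma adjusted p = 0.0359), or 0.80 relative to the median. This call held in 9 of 17 settings: it was lost without a filter, under quantile normalization, with variances without a trend, and on leaving out global 2, orbital 2, lateral 2 or either medial rectus array (0.53 to 0.56 without these arrays), with adjusted p between 0.00553 and 0.0973 in limma.

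The U133B probe set of TRDN, 222919_at, read 2001 and 2191 on orbital, 1424 and 2762 on global, 1569.9 and 1373 on lateral, and 1343 and 167 on medial rectus arrays. Medial replicate 2 was below the floor of that table and far from all other arrays. The gene differed by 1.19 ± 0.56 between layers and whole muscle, the same sign as on U133A, without passing (limma adjusted p = 0.103). Medial minus lateral rectus was −1.44 ± 0.97 (interval −3.63 to 0.76, limma adjusted p = 0.991), a value that rests on medial replicate 2, since it was −0.13 without that array. Orbital minus global was 0.08 ± 0.39 (limma adjusted p = 0.981), and it turned to −0.40 without global replicate 1, the array of unstated layer.

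JPH1 encodes the main junctophilin of skeletal muscle, which tethers the tubule to the store. Its U133B probe set 229139_at read 28034 and 36318 on orbital, 64276 and 56423 on global, 23436 and 15769 on lateral, and 17758 and 14334 on medial rectus arrays. Global lay highest, orbital next and the rectus muscles lowest, with no overlap between global and orbital or between orbital and lateral rectus. The orbital layer had 1.81 times and the global layer 3.39 times the mean of whole muscle. JPH1 rose in the layers by 1.32 ± 0.27 (2.50-fold, limma adjusted p = 0.00246), or 1.54 relative to the median. Under quantile normalization almost nothing of this was left (0.07, adjusted p = 0.852; range over settings 0.000800 to 0.852), and the call held in the other 16 of 17 settings.

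Between the layers, JPH1 had the lowest adjusted p of all members tested. The orbital minus global difference was −0.92 ± 0.25 (1.89-fold; interval −1.50 to −0.33), with an adjusted p of 0.440 in limma. It was negative in every setting, between −1.10 and −0.73, and passed in none. Without global replicate 1, the array of unstated layer, it was −0.82, and without global replicate 2 it was −1.01. Medial and lateral rectus overlapped, with a difference of −0.27 ± 0.30.

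JPH2 encodes a second junctophilin, best known from heart muscle and also found in skeletal muscle. Probe set 229578_at on U133B read 7248 and 6551 on orbital, 7093 and 15334 on global, 7065 and 4978 on lateral, and 5921.5 and 3339 on medial rectus arrays. The groups overlapped in all comparisons, and the second global array stood 2.16-fold above the first. Orbital minus global was −0.60 ± 0.38 (interval −1.47 to 0.27, limma adjusted p = 0.756), −0.042 without global replicate 2 and −1.15 without global replicate 1, the array of unstated layer. Medial minus lateral was −0.42 ± 0.37, and layers minus whole muscle 0.72 ± 0.30 (limma adjusted p = 0.0694), which passed only without lateral replicate 1 (0.88, adjusted p = 0.0494; range over settings 0.0494 to 0.575). Its U133A probe set 220385_at lay between 20.5 and 81.8 units on all 8 arrays, below the floor, so that no difference can be given for it.

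**Figure D3:**
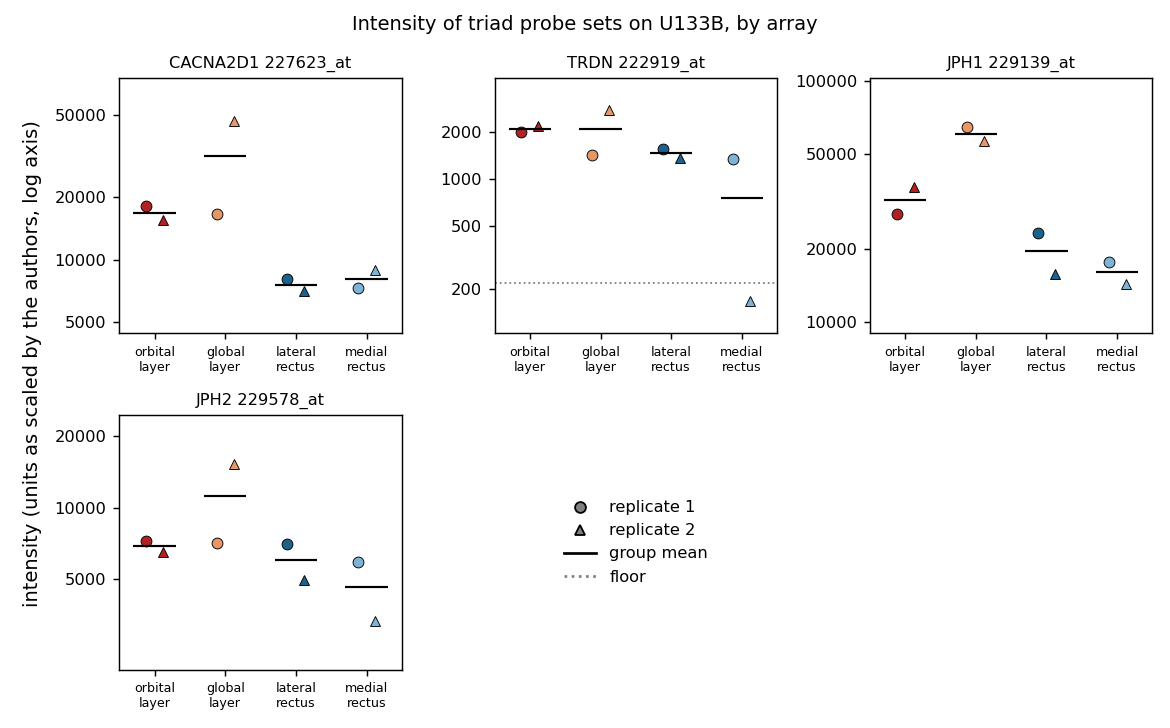
Deposited intensities of the 4 member probe sets on U133B, by group, on a log axis, with 1 point per array. JPH1 is highest on the global arrays, at 56423 and 64276, CACNA2D1 and JPH2 have one high global array, and TRDN has one medial rectus array at 167.

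Other proteins of the triad and the store were read from a list of 18 partners, 10 of which had a probe set on U133A and 10 on U133B. Between the layers, 1 of 10 tested probe sets on U133A rose and 1 fell (0.409% of all passed), and 0 of 10 passed on U133B (0.021% of all). The median differences were −0.20 and −0.25. SLN, an inhibitor of the calcium pump, rose in the orbital layer by 1.86 ± 0.23 (limma adjusted p = 0.0286), and ASPH, whose products include the junctional protein junctin, fell by 1.92 ± 0.24 (limma adjusted p = 0.0286) by 1 of its probe sets. The other tested probe sets of ASPH did not pass, at −0.09 on U133A and −0.48, −0.66 and 0.00064 on U133B. CASQ2, a calsequestrin, differed by 1.42 ± 0.30 without passing (limma adjusted p = 0.161). SRL, the calcium-binding sarcalumenin of the store, differed by −1.02 ± 0.30 (limma adjusted p = 0.476), with both global arrays above both orbital arrays, as for JPH1. Without the arrays of doubtful label, SLN (1.71) and ASPH (−1.83) still passed, and CASQ2 (1.18) and SRL (−1.37) did not. Between the whole muscles 0 of 10 and 0 of 11 passed.

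Against whole muscle, 2 of 10 partner probe sets on U133A rose in the layers and 2 fell, beside 18.6% and 30.1% of all. On U133B, 3 of 10 rose and 1 fell, beside 20.5% and 22.3% of all. The medians were 0.21 and 0.22. As for JPH1, some of these calls depended on the scaling, so the value under quantile normalization is given for each. TMEM38A, a cation channel of the store membrane, rose by 2.03 ± 0.20 (4.08-fold, limma adjusted p = 2.68e-05) and still passed at 0.75. SRL rose by 2.01 ± 0.33 (4.03-fold, limma adjusted p = 5.60e-04), a call that was lost at 0.77 (adjusted p = 0.0529). HOMER1, a scaffold protein, rose by 0.99 ± 0.25 and HRC, a calcium-binding protein of the store, by 1.01 ± 0.17, and both still passed, at 0.79 and 0.57. ATP2A1, the calcium pump of fast fibres, fell by 0.96 ± 0.18 (limma adjusted p = 0.00127) and passed at −1.10. TMEM38B fell by 0.69 ± 0.26 (limma adjusted p = 0.0477) and lost its call at −0.45. ATP2A2, the pump of slow and cardiac muscle, rose by 0.90 ± 0.16 by 1 probe set and fell by 1.12 ± 0.31 by another, so that it, like CACNA2D1, differed in sign between probe sets. Neither call of ATP2A2 was kept under quantile normalization (0.37 and −0.65, adjusted p = 0.0638 and 0.0889). SYPL2, a triad membrane protein that differed by 0.0036, passed there at −0.92 (limma adjusted p = 0.0148), so that 1 partner probe set rose and 1 fell on U133A and 2 rose and 1 fell on U133B. Over all probe sets under that normalization, 2084 rose and 2048 fell of 10664 on U133A, and 1844 and 1471 of 10645 on U133B.

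Paralogs of the members, meaning related channel, ryanodine receptor, junctophilin and immunophilin genes, were mostly too dim to be tested: 5 of 37 probe sets on U133A and 7 of 22 on U133B entered the comparison of layers, and none passed there. None of 8 and 12 tested probe sets passed between the rectus muscles. JPH3, a junctophilin known from brain, had scaled intensities of 4485 and 2034 in the orbital and 8129 and 10144 in the global layer, a difference of −1.59 ± 0.40 with an adjusted p of 0.377 in limma. Like JPH1, it was higher on both global arrays, and without the array of unstated layer the difference was −1.75. Against whole muscle, 0 rose and 1 of 6 fell on U133A, beside 18.6% and 30.1% of all. On U133B, 2 of 9 rose and 3 fell, beside 20.5% and 22.3% of all. The gamma subunit genes CACNG4 and CACNG6 fell in the layers by 1.89 ± 0.36 and 1.50 ± 0.26. The T-type channel gene CACNA1H rose by 1.78 ± 0.45 (limma adjusted p = 0.00791), CACNA2D4 rose by 0.89 ± 0.30 and CACNA1E fell by 1.32 ± 0.45 and 1.58 ± 0.55 by 2 probe sets. CACNA1H had lateral and medial rectus means of 680 and 387 scaled units, under the filter level of U133B. It was kept only through the layers. The CACNA1E probe sets had layer means under that level (769 and 650 orbital, 623 and 436 global). They were kept only through whole muscle. The directions of the CACNA1H and CACNA1E calls are therefore not independent of the filter. Under quantile normalization the CACNA1E calls were lost (−0.83 and −1.04) and the other 4 genes still passed, while CACNB3 on U133A came to pass (0.77, adjusted p = 0.0312).

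Genes of the tubule and surface membrane made up the last list. On U133A, 0 of 10 probe sets passed between the layers and 0 of 10 between the whole muscles. SCN4A, the sodium channel that carries the muscle action potential, had the smallest p in both comparisons, with −0.60 ± 0.29 orbital minus global (limma adjusted p = 0.565; −0.59 without the array of conflicting label) and −0.93 ± 0.39 medial minus lateral (limma adjusted p = 0.999). Against whole muscle, 1 of 10 tested probe sets rose and 1 fell, beside 18.6% and 30.1% of all. CLCN1, the chloride channel of the muscle membrane, fell by 1.78 ± 0.29 (limma adjusted p = 5.78e-04). Its layer means, 472 scaled units in the orbital and 557 in the global layer, were under the filter level of U133A. CLCN1 was kept only through its whole muscle values, so its direction is not independent of the filter. DYSF, the membrane repair protein dysferlin, rose by 0.86 ± 0.22 (limma adjusted p = 0.00718). Both still passed under quantile normalization (−1.25 and 0.78). There CAV3 (−0.58, limma adjusted p = 0.0396) and 1 probe set of BIN1 (−0.81, limma adjusted p = 0.0234) passed as well. With these, 1 of 10 rose and 3 fell, where 2084 and 2048 of 10664 did so over all probe sets. The median difference of the list was −0.12, and its 1 probe set on U133B, of ORAI1, passed in no comparison.

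**Figure D4:**
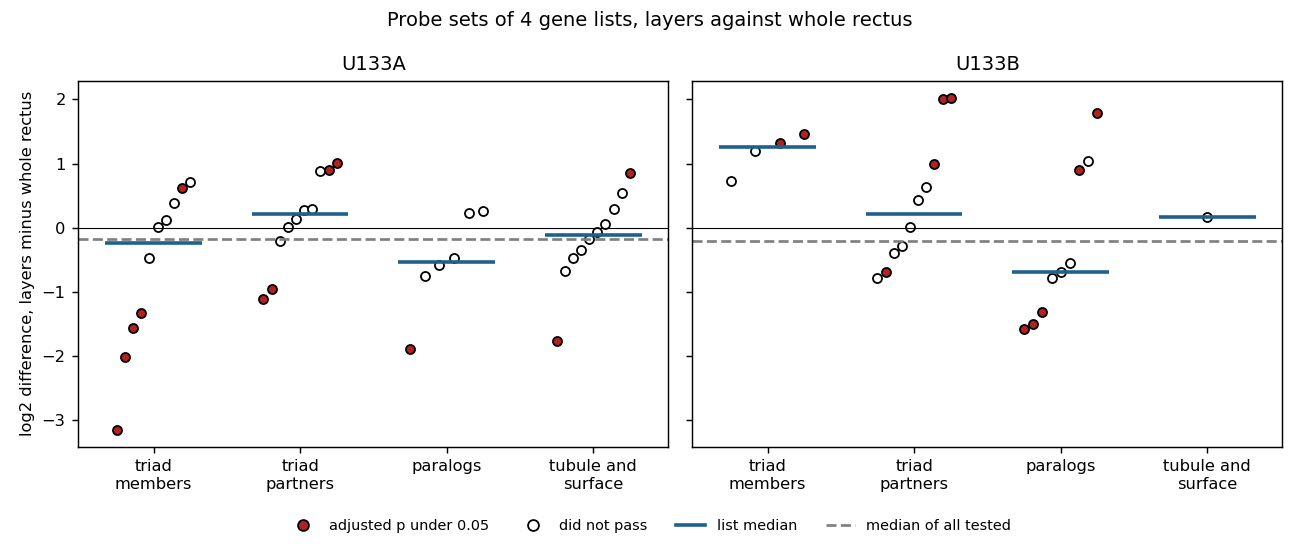
Log2 differences of the tested probe sets of the triad members, their partners, their paralogs and the tubule and surface membrane genes, for microdissected layers against whole rectus on each array type. Filled points passed at an adjusted p under 0.05, bars mark list medians and the dashed line the median of all probe sets, and the 4 member probe sets on U133B lie above 0.

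Profiles over the 8 arrays of U133A were compared between genes by the root mean square distance of their log2 values, each centred on its own mean, among 9306 probe sets. The profile nearest to RYR1 was that of MYL3, a slow-fibre and ventricular myosin light chain, at 0.0923, followed by HSPB2 at 0.146 and MKRN1 at 0.152, where the median probe set was at 0.619. Nearest to CACNA1S, whose own values vary little, were SNRNP27 at 0.0986, APC at 0.105 and RPL7 at 0.118, with a median of 0.526 over all probe sets.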

How the data were processed

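The authors deposited linear, already scaled intensities, 1 for each probe set on each array: the mean of each array after trimming 2% at either end was 1500.2 to 1500.7 units. The summary software was not given in the sources used here. Arrays were grouped by title, per the labels, and 4 of the 8 rectus arrays, whose titles carry no number, were numbered in their order of deposit. The members and gene lists were chosen with earlier results of these data known. Symbols came from the platform annotation.

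Each table was analysed separately. Arrays were scaled to a common trimmed mean, values under the pooled 20th percentile (146 and 218 units) were set to it before taking log2. Probe sets whose mean log2 value over the arrays compared reached that of the pooled median (654 and 803 units) were kept, without 68 control probe sets per table. Differences were tested two-sided with limma 3.58.1 in R 4.3.3 (2 groups, variances with an intensity trend), adjusted by Benjamini-Hochberg over all kept probe sets. The fit was tested on simulated data. Printed array values are the deposited ones unless called scaled.

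Of each list and comparison, members past the threshold and up to 3 kept members with the smallest p were considered for naming. Alternatives were quantile normalization, array weights, a trend-free fit of variances, a fit of all 4 groups together, floors at the 5th and 40th percentile, a stricter filter (75th percentile) or none, the replicate number as a block, averaging a gene's probe sets, and leaving out each array. Figures were drawn with matplotlib 3.10.9 in Python 3.11.15.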

Additional observations from a re-analysis of the deposited data

Results flagged for a closer look

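In 5 of 34 groups of 4 arrays, 1 array stood apart from the others of its kind on the log2 scale by Dixon's criterion, which chance alone meets in about 1 in 20 groups drawn from 1 population. The gap to the nearest array, as a share of the whole range of the 4, is given for each. It was 0.911 for CACNG1 on medial rectus replicate 2, the highest of the whole muscle arrays. For TRDN it was 0.9 on U133A, where lateral rectus replicate 1 was the highest whole muscle array, and 0.921 on U133B, where medial rectus replicate 2 was the lowest. Global layer replicate 2 of U133B was the highest of the layers for CACNA2D1, at 0.859, and for JPH2, at 0.881.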

How the results depend on the processing

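With 2 arrays a group and a standard error near 0.3 on the log2 scale, only large differences could pass between the layers or between the muscles. No member passed between the layers or the rectus muscles in any setting. Between the layers, the count over all probe sets moved from 39 on U133A to 0 without a filter, 12 without a trend and 68 to 144 on leaving out an array. On U133B it moved from 2 to 0 under quantile normalization, with a floor at the 5th percentile, without a filter and without a trend, to 19 with a floor at the 40th percentile, 23 with a filter at the 75th, 10 with all 4 groups in one fit and 0 to 28 on leaving out an array. With the replicate number as a block it was 92 and 26, and 0 members passed; same-numbered layer arrays deviated together (correlation 0.256 on U133A and 0.132 on U133B), but with 2 pairs nothing in the labels ties a number to an animal. Between the rectus muscles on U133A it moved from 0 to 7 with the 75th percentile filter and 0 to 9 on leaving out an array. Against whole muscle it moved from 5132 to 2513 on U133A and from 4510 to 2799 on U133B with that filter, which tests fewer probe sets. Members past the threshold there moved on U133A from 5 to 3 without a filter and 2 with the 75th percentile filter. They were 4 under quantile normalization and without a trend, 7 with all 4 groups in one fit, and 4 to 6 on leaving out an array. On U133B, members past the threshold moved from 2 to 0 under quantile normalization, with 2 to 3 on leaving out an array. Quantile normalization also moved the share of calls higher in the layers from 38.3% to 50.4% on U133A and from 47.8% to 55.6% on U133B.

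Some differences that did not pass changed sign. Under quantile normalization, TRDN on U133A between the layers went to −0.0099, and RYR1 and CACNA1S against whole muscle to −0.19 and −0.26, and CACNA1S to −0.031 with array weights. On leaving out an array, values between the layers ranged from −0.25 to 0.18 for FKBP1A 214119_s_at, −0.19 to 0.21 for TRDN and −0.64 to 0.45 for RYR1 on U133A, and from −0.40 to 0.56 for TRDN and −1.48 to 0.018 for CACNA2D1 on U133B. Between the rectus muscles they ranged from −0.35 to 0.25 for CACNA2D1, −0.82 to 0.064 for TRDN, −0.062 to 0.83, −0.0093 to 0.48 and −0.18 to 0.47 for FKBP1A and −0.041 to 0.28 for CACNB1 210967_x_at on U133A, and from −0.55 to 0.017 for JPH1 and −0.058 to 0.24 for CACNA2D1 on U133B. Against whole muscle they ranged from −0.088 to 0.13 for CACNA1S and −0.27 to 0.37 for CACNB1 210967_x_at. The causes were not tested. Averaging the kept probe sets of a gene gave 0.28 for FKBP1A between the layers, 0.04 for CACNB1 between the rectus muscles, and −0.24 for CACNB1 and −1.66 for FKBP1A against whole muscle. Each average against whole muscle includes a probe set kept only through whole muscle, at −1.57 for CACNB1 and −3.16 for FKBP1A. These averages are therefore not independent of the filter. The other kept probe sets were at 0.71 and 0.13 for CACNB1, whose average owes its sign to the filter, and at −0.48 and −1.33 for FKBP1A.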
